A study of Mus musculus with 18 samples.

Results

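Livers taken 48 h after D-galactosamine were compared with livers of sham mice, 3 arrays against 3, across every gene that the array names alone. D-galactosamine (GalN) is an amino sugar that is taken up by hepatocytes and traps their uridine nucleotides. Male C57BL6 mice, an inbred laboratory strain, received GalN into the peritoneum at 4.5 g per kg and were killed after 24 h or 48 h, or received saline and were killed after 24 h (sham), and none of the groups carried another allele or agent. No sham group was taken at 48 h, so the compared livers also differ in the time since injection. Organs were perfused in situ with saline and an RNA preservative, and each group has 1 array for each of the letters A, B and C. The wording of the design on RNA of 3 mice can also be read as pooling, and the letters were taken as separate mice. The comparison covers 6 of the 18 arrays of the series. Its members are 18193 genes, each read by 1 probe set, of which 12062 lay above the array median in at least 3 of the 9 liver arrays and were tested.

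The tissue label was checked on markers. Across these 6 arrays the hepatocyte transcripts Alb, Apoa1, Ttr, Cps1 and Hnf4a read at least 12.3, and the kidney tubule transcripts Umod, Slc34a1, Kap and Slc12a1 read at most 4.12, on a log2 scale whose lowest value is 2.213.

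The liver makes most plasma proteins, builds cholesterol and fatty acids, burns fat during fasting, clears drugs and bile acids, and turns ammonia into urea. Cholesterol synthesis is controlled by SREBP2, a membrane-bound transcription factor that is released when sterols are scarce, and fatty acid synthesis by SREBP1c. Fatty acid oxidation is controlled by PPAR-alpha, a nuclear receptor that fatty acids activate. Loss of hepatocytes is followed by arrival of macrophages, by division of remaining hepatocytes and, where division is blocked, by growth of progenitor cells.

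At 48 h, 1229 of the 12062 genes (10.2%) differed from sham with limma, a linear model that shares information on spread between genes, at a Benjamini-Hochberg adjusted p under 0.05. Of these, 754 (6.25% of genes tested) were higher and 475 (3.94%) lower, and these shares are the background for every list below. After each array was shifted to a common 75th percentile, 483 genes were higher and 530 lower, so the excess of rises depended on the scaling. At least 2-fold differences were seen for 670 genes and at least 4-fold differences for 145, and the median size was 2.09-fold. In all 1229 called genes the 48 h arrays lay wholly above or wholly below the sham arrays. Over all 12062 genes tested, they lay wholly above in 2137 and wholly below in 1308. Such separation was thus common among genes without a call and adds no support to the calls. The median log2 difference over all genes tested was 0.03. In whole-liver RNA, fewer cells of a type and less RNA per cell cannot be told apart.

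Array C at 48 h stood apart from A and B. In C, 15.3% of genes lay at least 2-fold from the mean of the other arrays of the group, against 2.07% to 6.81% in the other liver arrays. The 3' control set exceeded the 5' control set, a sign of RNA length, by 2.56 for actin and 0.81 for Gapdh in C, against ranges of 1.48 to 1.95 and 0.21 to 0.35. Without it 1599 genes were called, of which 982 were among the 1229. Without sham B, 448 genes were called. Values below are given in the order A, B, C, and genes called are those of the fit with all 9 liver arrays. A fold is written as "at least" where an array of the lower group read background, which is a value within 1 of the lowest of the table, or one below the median of its array that recurs to the last digit on another array.

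Transcripts of cholesterol synthesis were the most often lowered of the lists described. Of 17 enzymes tested, 14 fell and 3 did not pass the test, with a median log2 difference of -1.87. The count was 6 without sham B and 9 without sham A. The sham livers were themselves spread, with list medians of 0.50, 0.05 and -0.60 relative to the sham mean, while those at 48 h were -1.73, -2.05 and -1.95, so the groups did not overlap in the list median. Cyp51, the sterol demethylase that first modifies lanosterol, read 11.54, 11.47 and 11.45 in sham and 9.16, 8.34 and 8.89 at 48 h and was 6.46-fold lower (log2 difference -2.69, SE 0.26, adjusted p = 0.00417). Dhcr7, the last enzyme of the path, read 12.63, 12.38 and 11.99 in sham and 10.59, 10.28 and 9.72 at 48 h and was 4.39-fold lower (log2 difference -2.13, SE 0.26, adjusted p = 0.00686). Both transcripts were lower in every 48 h liver than in any sham liver. Ebp, a sterol isomerase, read 13.44, 13.44 and 13.35 in sham and 11.57, 11.27 and 11.78 at 48 h and was 3.64-fold lower (log2 difference -1.87, SE 0.16, adjusted p = 0.00355). Tm7sf2, a sterol reductase, read 12.73, 12.81 and 12.69 in sham and 11.13, 11.27 and 11.29 at 48 h, a 2.85-fold fall (log2 difference -1.51, SE 0.08, adjusted p = 8.21e-04). Fdps, which makes farnesyl diphosphate, the branch point to sterols, read 13.53, 13.04 and 12.56 in sham and 10.31, 9.03 and 9.35 at 48 h and was 11.2-fold lower (log2 difference -3.48, SE 0.61, adjusted p = 0.017). The call of Fdps was lost without sham A or sham B, with an adjusted p of up to 0.0612.

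The promoters of 3 lowered cholesterol enzymes, chosen after their values were seen, are shown because of the motifs they hold. They run from 250 bases before to 50 after the start of the gene in RefSeq (build GRCm38.p6), 5′ to 3′ on the strand of the gene. Capitals mark CCAAT, the motif of NF-Y, and TCACNCCA, which resembles the sterol response element, on either strand. Nsdhl, a sterol dehydrogenase (chrX:72918271-72918570, plus strand), holds CCAAT only. Hmgcs1, the HMG-CoA synthase (chr13:119690101-119690400, plus strand), and Msmo1, a sterol methyl oxidase (chr8:64733529-64733828, minus strand), hold both motifs.
Nsdhl: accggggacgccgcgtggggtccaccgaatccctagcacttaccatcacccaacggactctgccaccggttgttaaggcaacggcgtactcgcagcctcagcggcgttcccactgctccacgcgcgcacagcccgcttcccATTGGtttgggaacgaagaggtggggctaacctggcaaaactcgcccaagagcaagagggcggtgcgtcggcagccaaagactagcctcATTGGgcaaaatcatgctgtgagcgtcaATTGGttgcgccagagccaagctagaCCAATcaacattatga
Hmgcs1: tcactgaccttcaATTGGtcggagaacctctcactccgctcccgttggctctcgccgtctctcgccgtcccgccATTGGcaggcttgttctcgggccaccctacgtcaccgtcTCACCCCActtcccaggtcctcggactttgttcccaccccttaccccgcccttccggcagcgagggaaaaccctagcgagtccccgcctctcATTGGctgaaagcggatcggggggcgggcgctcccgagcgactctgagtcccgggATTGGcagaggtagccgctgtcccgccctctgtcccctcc
Msmo1: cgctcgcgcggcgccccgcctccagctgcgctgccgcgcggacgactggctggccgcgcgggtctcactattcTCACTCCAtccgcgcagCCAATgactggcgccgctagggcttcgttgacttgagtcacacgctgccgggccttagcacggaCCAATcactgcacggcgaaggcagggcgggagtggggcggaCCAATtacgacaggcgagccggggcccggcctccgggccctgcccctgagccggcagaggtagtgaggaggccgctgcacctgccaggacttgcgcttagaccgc

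RefSeq gave a promoter for 14 of the 17 cholesterol genes on the array. CCAAT was found in at least 1 promoter of 14 of these 14 genes, and in 37.4% of all 32851 promoters of the same length. TCACNCCA was found in 2 of the 14, and in 4.36% of all promoters. The 14 genes have 17 promoters, so a share of genes stands beside a share of promoters. A match describes the sequence and is not evidence of binding. Nsdhl read 12.04, 11.80 and 11.29 in sham and 8.82, 8.53 and 8.59 at 48 h and was 8.37-fold lower (log2 difference -3.06, SE 0.40, adjusted p = 0.00789). Hmgcs1 read 14.87, 14.46 and 13.73 in sham and 13.49, 12.41 and 12.31 at 48 h (log2 difference -1.62, SE 0.38, adjusted p = 0.0407), and Msmo1 read 13.98, 13.42 and 12.77 in sham and 12.25, 11.02 and 11.44 at 48 h (log2 difference -1.82, SE 0.40, adjusted p = 0.033). In all 3 the highest 48 h liver lay below the lowest sham liver. Leaving out 24 h A, 24 h B, 24 h C, 48 h B, 48 h C, sham A or sham B ended the call of Hmgcs1 (adjusted p up to 0.126). Msmo1 was no longer called without 24 h B, 24 h C, 48 h B, 48 h C, sham A or sham B (adjusted p up to 0.106).

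Regulators of sterol level were mixed, with 4 of 15 tested lower and 1 higher. The lower count was 2 without 48 h A, sham A or sham B. Insig1, which holds SREBP in the endoplasmic reticulum and is itself an SREBP target, read 13.37, 13.04 and 12.60 in sham and 10.91, 11.02 and 11.46 at 48 h and was 3.66-fold lower (log2 difference -1.87, SE 0.25, adjusted p = 0.00789). Stard4, a carrier of cholesterol within the cell, was 6.38-fold lower (log2 difference -2.67, SE 0.31, adjusted p = 0.00591). Abcg5, a component of the pump that exports sterol into bile, went the other way at 11.04, 11.11 and 11.42 in sham and 11.995, 12.15 and 11.97 at 48 h (log2 difference 0.84, SE 0.16, adjusted p = 0.0203). For Abcg5, the call was lost without 48 h A, 48 h B, sham A or sham B, and its adjusted p then reached 0.0761. The transcript of SREBP2 itself, Srebf2, was not called (log2 difference 0.21, adjusted p = 0.673), nor, except with array weights, was Srebf1 (log2 difference -1.42, adjusted p = 0.183).

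Fatty acid synthesis fell alongside. Of 22 genes tested, 11 fell and 11 did not pass the test (median -1.32). This count was 4 without 48 h A or sham B, 6 without 24 h B or sham A and 7 without 24 h A or 48 h C. Scd1, the desaturase that makes oleate, read 14.18, 14.32 and 13.57 in sham and 9.80, 11.35 and 9.42 at 48 h and was 14.3-fold lower (adjusted p = 0.00696). Acacb, the acetyl-CoA carboxylase next to mitochondria whose product blocks fatty acid import, read 8.53, 7.81 and 7.63 in sham and 5.82, 6.02 and 6.11 at 48 h and was 4.03-fold lower (log2 difference -2.01, SE 0.24, adjusted p = 0.00606). The desaturase Fads1 and the elongase Elovl5, which build long polyunsaturated fatty acids, fell less. Fads1 was 3.09-fold lower (log2 difference -1.63, SE 0.17, adjusted p = 0.00478) and Elovl5 1.58-fold lower (log2 difference -0.66, SE 0.09, adjusted p = 0.00938). Thrsp, a nuclear protein that promotes lipogenesis, read 14.43, 13.80 and 13.06 in sham and 8.85, 9.24 and 11.46 at 48 h and was 15-fold lower (adjusted p = 0.0175), with C the highest of the 48 h livers. The call of Thrsp was lost without 48 h A, sham A or sham B, with an adjusted p of up to 0.0629.

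Fatty acid oxidation moved in the opposite direction. Of 29 genes tested, 9 rose and 20 did not pass the test (median 0.59). The number of rises was 5 without 48 h A, 48 h B or sham A. Ehhadh, the peroxisomal bifunctional enzyme, read 13.03, 12.85 and 12.47 in sham and 15.55, 15.36 and 14.68 at 48 h and was 5.33-fold higher (log2 difference 2.41, SE 0.35, adjusted p = 0.00988). Acadm, the medium-chain dehydrogenase of mitochondria, read 12.57, 12.67 and 12.58 in sham and 13.37, 13.32 and 13.57 at 48 h and was 1.76-fold higher (log2 difference 0.81, SE 0.12, adjusted p = 0.00938). Acot1, which splits acyl-CoA in the cytosol, read 7.16, 7.31 and 7.61 in sham and 11.45, 11.43 and 11.11 at 48 h, with no sham liver above 7.61 and no 48 h liver below 11.11. Pdk4, a kinase that turns off pyruvate oxidation, read 3.94, 2.99 and 3.59 in sham and 7.49, 7.34 and 6.49 at 48 h (adjusted p = 0.0066). The receptor transcript Ppara was not called (11.45, 12.09 and 11.95 in sham and 11.73, 11.74 and 10.29 at 48 h, adjusted p = 0.475).

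**Figure D1:**
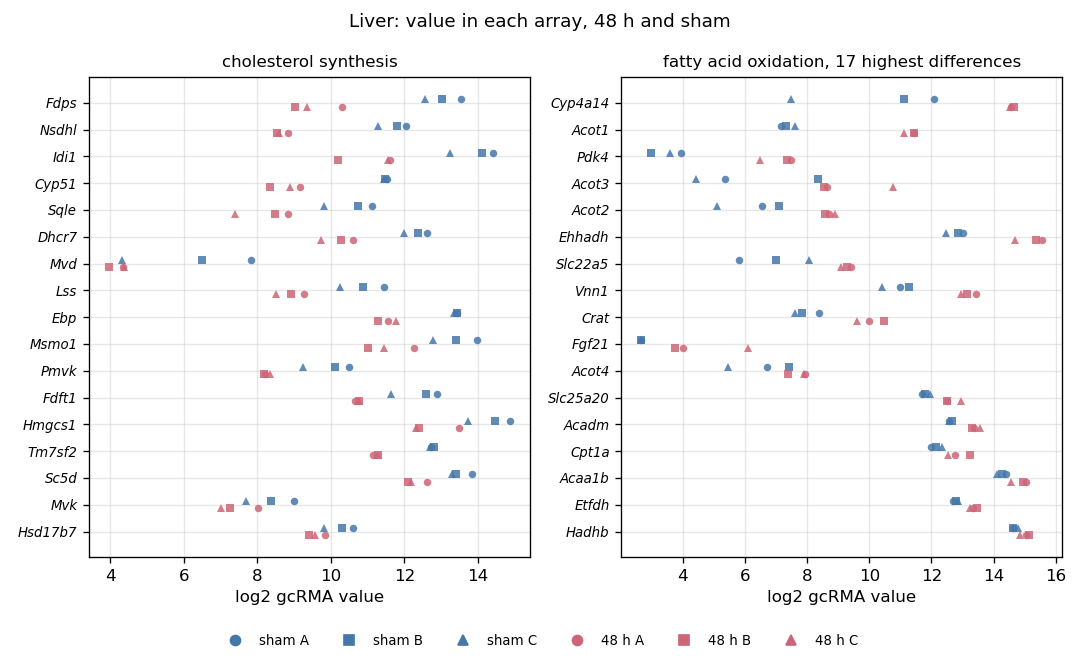
Value of each gene (log2 gcRMA, horizontal axis) in the 3 sham and the 3 livers at 48 h, for the 17 cholesterol synthesis genes tested, of which 14 were called lower, and for the 17 fatty acid oxidation genes with the highest differences. Points are single arrays and the shape gives the letter; Cyp51 and Acot1 show no overlap between the groups.

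Genes of the lipid droplet and of fat uptake rose in 6 and fell in 1 of 26 tested (median 0.34), the number of rises was 3 without 48 h B or sham B, and the fall was lost without 48 h A, sham A, sham B or sham C. Cidec, which fuses droplets, read 4.13, 4.15 and 4.39 in sham and 9.48, 9.23 and 8.75 at 48 h. Cd36, a fatty acid transporter of the cell surface, read 9.50, 9.86 and 9.79 in sham and 12.03, 11.51 and 11.87 at 48 h and was 4.25-fold higher (log2 difference 2.09, SE 0.19, adjusted p = 0.00364). Lpl, the lipase that frees fatty acids from lipoproteins, read 7.87, 8.30 and 8.35 in sham and 9.91, 10.51 and 9.86 at 48 h and was 3.79-fold higher (log2 difference 1.92, SE 0.26, adjusted p = 0.00848). Lpl is scarce in adult hepatocytes and is also made by macrophages. The apolipoproteins, which carry fat out of the liver, fell by small amounts: 6 of 18 were called (median -0.29), among them Apoe, which read 15.40, 15.43 and 15.42 in sham and 15.08, 15.13 and 14.84 at 48 h (log2 difference -0.40, SE 0.08, adjusted p = 0.0254). The calls numbered 0 without sham B, 1 without 48 h A or sham C and 2 without sham A, 3 after the shift to a common 75th percentile and 1 after quantile normalization, which also ended the call of Apoe. Leaving out 48 h A, sham A, sham B or sham C ended the call of Apoe (adjusted p up to 0.0902).

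Among the 12 largest rises outside fat metabolism, Bhlhb9 read 3.48, 4.57 and 2.85 in sham and 8.76, 8.96 and 8.75 at 48 h and was at least 36.5-fold higher (log2 difference 5.19, SE 0.55, adjusted p = 0.00487). Mtnr1a, a melatonin receptor, read the lowest value of the table in every sham liver and 7.06, 6.31 and 7.27 at 48 h (adjusted p = 0.00148). The identical sham readings make this p too small. No sham reading passed the filter, so Mtnr1a was tested only because of its GalN readings, and this p adds no support. Lgals3, the lectin galectin-3 of macrophages and stressed epithelia, read 5.99, 6.46 and 5.91 in sham and 9.03, 10.80 and 11.09 at 48 h and was 18.2-fold higher (log2 difference 4.18, SE 0.52, adjusted p = 0.00692). Clec7a, the beta-glucan receptor of myeloid cells, read 4.998, 5.03 and 4.78 in sham and 8.05, 9.02 and 9.34 at 48 h and was 14.6-fold higher (log2 difference 3.86, SE 0.57, adjusted p = 0.00994). In Lgals3 and Clec7a, liver A was the lowest of the 48 h group, yet above every sham liver.

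Sprr1a, a cornified envelope protein that epithelia make under stress, read 4.92, 3.83 and 3.78 in sham and 6.54, 8.64 and 8.84 at 48 h and was at least 14.2-fold higher (adjusted p = 0.0259). Acot9, a mitochondrial acyl-CoA thioesterase, read 6.01, 4.196 and 4.58 in sham and 8.63, 8.79 and 8.37 at 48 h and was 12.7-fold higher (log2 difference 3.67, SE 0.51, adjusted p = 0.00885). Psat1, an enzyme of serine synthesis, read 2.50, 2.50 and 2.27 in sham and 7.38, 7.08 and 7.88 at 48 h and was at least 32.5-fold higher, but with adjusted p = 0.0496. Psat1 is the least firm of these calls. Psat1 was no longer called without 24 h A, 48 h A, 48 h B, 48 h C, sham A, sham B or sham C (adjusted p up to 0.138). For Sprr1a, the call was lost without 48 h B, 48 h C, sham B or sham C, and its adjusted p then reached 0.0914. The only set naming Rps25 alone, a protein of the small ribosomal subunit, read 2.97 to 3.56 in sham and 7.57 to 8.70 at 48 h. All its sham readings were background, whereas the chosen sets of Rps20, Rpl7 and Rpl22, given below, read at least 13.03 in sham. How well this set stands for the messenger RNA of Rps25 was not tested, so its rise is a result for the set only.

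**Figure D2:**
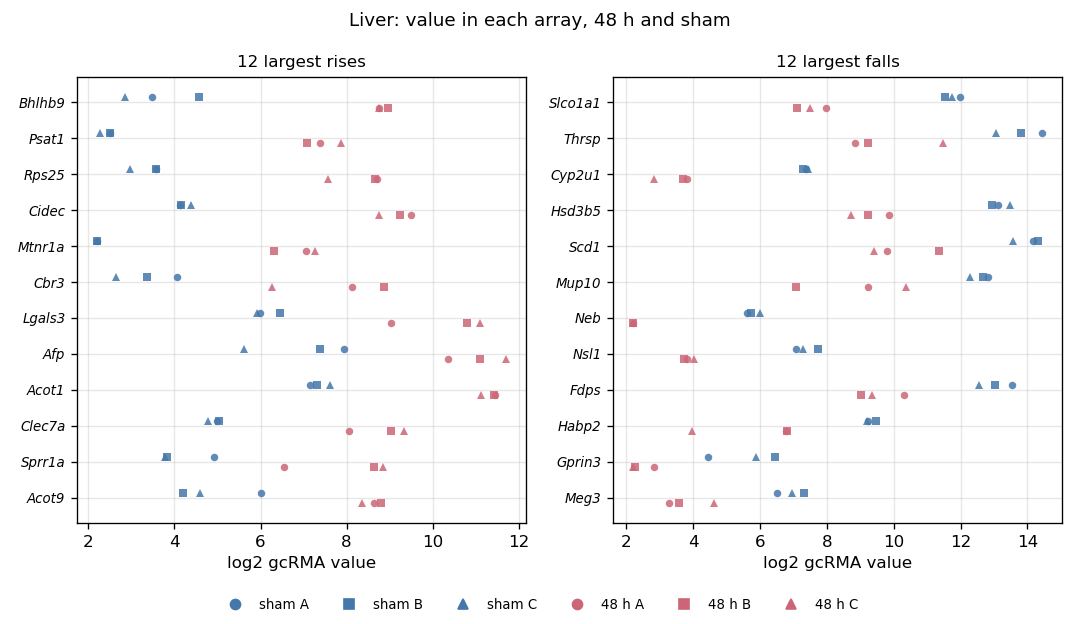
Value (log2 gcRMA, horizontal axis) in each sham and 48 h liver for the 12 largest rises (left) and the 12 largest falls (right) among called genes whose groups do not overlap. Points are single arrays and the shape gives the letter; Mtnr1a in sham and Neb at 48 h sit at the lowest value of 2.213.

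The largest fall was that of Slco1a1, a hepatocyte importer of organic anions, which read 11.98, 11.53 and 11.74 in sham and 7.97, 7.10 and 7.49 at 48 h. Cyp2u1, a P450 that hydroxylates fatty acids, read 7.37, 7.28 and 7.45 in sham and 3.83, 3.71 and 2.84 at 48 h, and Hsd3b5, a male-specific steroid enzyme of mouse liver, read 13.11, 12.94 and 13.47 in sham and 9.86, 9.23 and 8.73 at 48 h. Each of these was lower in every 48 h liver by more than 3 log2 units. Habp2, a plasma protease that acts on coagulation factors, read 9.22, 9.47 and 9.21 in sham and 6.78, 6.82 and 3.96 at 48 h and was 10.9-fold lower (log2 difference -3.45, SE 0.73, adjusted p = 0.0293), with C far under A and B. Mup10, a major urinary protein that males secrete, read 12.81, 12.66 and 12.28 in sham and 9.24, 7.07 and 10.38 at 48 h and was 12.9-fold lower (log2 difference -3.69, SE 0.74, adjusted p = 0.0252). Its set may also read other members of this near-identical family. The call of Habp2 was lost without 24 h B, 24 h C, sham A, sham B or sham C, with an adjusted p of up to 0.0984. Leaving out 48 h A, sham A, sham B or sham C ended the call of Mup10 (adjusted p up to 0.084).

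Less abundant transcripts were also among the 12 largest falls. Nsl1, a kinetochore protein, read 7.09, 7.72 and 7.28 in sham and 3.81, 3.71 and 4.02 at 48 h and was at least 11.4-fold lower (adjusted p = 0.017). Meg3, a long non-coding RNA, read 6.51, 7.31 and 6.97 in sham and 3.29, 3.56 and 4.62 at 48 h and was 8.62-fold lower (adjusted p = 0.0175). Gprin3 read 4.43, 6.46 and 5.87 in sham and 2.84, 2.26 and 2.21 at 48 h and was at least 8.87-fold lower (adjusted p = 0.0107), with the 48 h livers at or near the lowest value. Neb, a giant muscle protein, read 5.62 to 5.99 in sham and 2.213 in every GalN liver (adjusted p = 1.08e-05), and identical readings in 6 of the arrays make this p too small. Neb passed the filter only through its sham arrays, so this p adds no support to the fall. Nsl1 was no longer called without 48 h A, sham B or sham C (adjusted p up to 0.0649). For Meg3, the call was lost without 48 h A, sham B or sham C, and its adjusted p then reached 0.0657.

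Plasma proteins made by hepatocytes fell in several classes. Of 22 coagulation genes tested, 11 fell and 11 did not pass the test (median -0.74); the count was 6 without sham B and 7 without 48 h B. Ggcx, the carboxylase that all vitamin K-dependent clotting factors need, read 8.98, 9.28 and 9.49 in sham and 6.82, 6.69 and 6.87 at 48 h and was 5.48-fold lower (log2 difference -2.45, SE 0.16, adjusted p = 0.00148). F10, a vitamin K-dependent factor, read 13.36, 13.43 and 13.55 in sham and 12.53, 12.68 and 12.68 at 48 h and was 1.76-fold lower (log2 difference -0.82, SE 0.08, adjusted p = 0.00478). F9, another such factor, read 12.66, 12.73 and 13.06 in sham and 11.21, 11.42 and 11.81 at 48 h and Serpinc1, the inhibitor antithrombin, 14.96, 14.95 and 14.99 in sham and 14.35, 14.49 and 14.50 at 48 h. All 3 secreted proteins were lower in each 48 h liver, by less than the carboxylase was.

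Of 15 genes for albumin and carriers, 9 fell and 6 did not pass the test (median -0.46). That count was 3 without sham B and 5 without 48 h A or sham C, and 4 after the shift to a common 75th percentile and also after quantile normalization. Itih1, a heavy chain that stabilises hyaluronan, read 12.98, 13.14 and 13.32 in sham and 11.48, 11.83 and 11.50 at 48 h and was 2.91-fold lower (log2 difference -1.54, SE 0.16, adjusted p = 0.00478). Serpina6, the carrier of cortisol-like steroids, read 12.29, 12.68 and 12.37 in sham and 10.47, 11.32 and 10.74 at 48 h and was 3.05-fold lower (log2 difference -1.61, SE 0.22, adjusted p = 0.00885). Albumin itself was not called: Alb read 16.50, 16.22 and 16.28 in sham and 16.15, 16.30 and 16.18 at 48 h (adjusted p = 0.455), values near the top of the scale, where the groups overlapped.

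Complement genes changed in both directions. Of 22 tested, 9 fell, 3 rose and 10 did not pass the test, and the falls numbered 5 without sham B. C6, a component of the membrane attack complex made by hepatocytes, read 10.95, 10.72 and 11.80 in sham and 9.13, 8.64 and 8.63 at 48 h and was 5.13-fold lower (log2 difference -2.36, SE 0.32, adjusted p = 0.00816). Cfi, the protease that inactivates C3b, read 14.06, 14.14 and 14.31 in sham and 13.43, 13.65 and 13.58 at 48 h and was 1.53-fold lower (log2 difference -0.61, SE 0.09, adjusted p = 0.00886). In contrast C1qb, a C1q chain made by macrophages, read 11.75, 12.20 and 11.94 in sham and 13.15, 13.16 and 12.94 at 48 h and was 2.18-fold higher (log2 difference 1.12, SE 0.12, adjusted p = 0.00512). Cfp, properdin, a product of myeloid cells, read 5.92, 6.44 and 6.64 in sham and 8.01, 8.19 and 7.93 at 48 h and was 3.27-fold higher (log2 difference 1.71, SE 0.25, adjusted p = 0.00944). The macrophage markers that rose beside these genes are described with the cell types, and their part in these rises was not tested.

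Of 22 acute phase genes, 4 fell and 18 did not pass the test (median -0.52), and the falls numbered 2 without 48 h A, sham B or sham C. Orm1, an acid glycoprotein, read 15.84, 16.003 and 16.11 in sham and 14.92, 14.59 and 15.08 at 48 h (log2 difference -1.12, SE 0.14, adjusted p = 0.00686) and Itih4 read 13.92, 14.26 and 14.43 in sham and 12.73, 13.31 and 13.09 at 48 h (log2 difference -1.16, SE 0.18, adjusted p = 0.012). The sham livers were unequal in this class. Saa1, serum amyloid A, read 12.54, 15.29 and 15.47 in sham and 10.92, 10.15 and 11.86 at 48 h and was not called (adjusted p = 0.146), with sham A well under sham B and C. Both Saa1 and Lcn2 were called with array weights, in the fit of all 18 arrays and by rank product. Lcn2, lipocalin 2, read 11.46, 13.45 and 14.13 in sham and 10.12, 9.81 and 11.17 at 48 h with the same order in sham (adjusted p = 0.144). List medians of the sham livers relative to their mean were -0.75, 0.02 and 0.72.

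**Figure D3:**
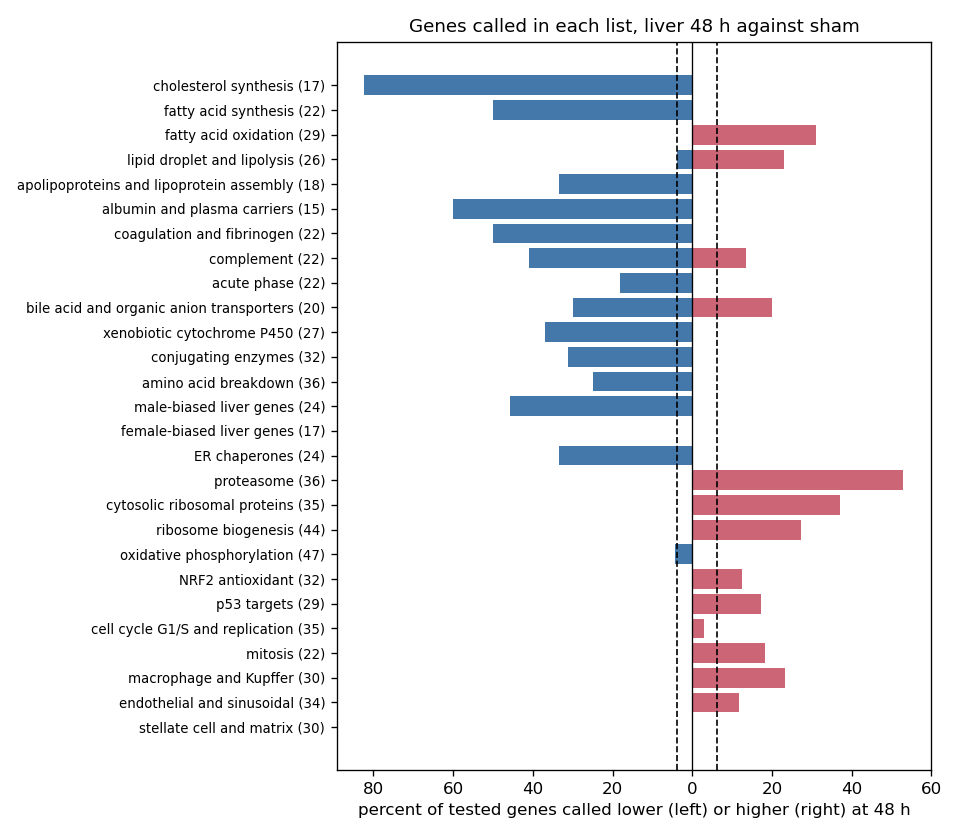
Percent of tested genes of each list called higher (right, red) or lower (left, blue) at 48 h against sham, with the number tested in brackets. Dashed lines mark the shares over all genes tested, 6.25% higher and 3.94% lower; cholesterol synthesis reaches furthest to the left and the proteasome furthest to the right.

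Carriers of bile acids and organic anions changed in both directions, with 6 of 20 lower and 4 higher. The falls numbered 3 without sham B or sham C, and the rises 1 without 48 h B and 2 without 48 h A, sham A, sham B or sham C. Slc10a1, the sodium-dependent importer of bile acids, read 14.08, 14.24 and 14.01 in sham and 13.44, 13.01 and 13.36 at 48 h and was 1.79-fold lower (log2 difference -0.84, SE 0.13, adjusted p = 0.0119). Abcc6, an exporter of the basolateral side, read 8.46, 8.85 and 8.80 in sham and 6.93, 6.99 and 6.74 at 48 h and was 3.52-fold lower (log2 difference -1.82, SE 0.18, adjusted p = 0.00417). The rises were the export pumps Abcb1b, Abcc4, Abcc3 and Abcg2. Abcb1b, a multidrug pump, read 5.05, 4.68 and 5.05 in sham and 6.60, 6.57 and 6.63 at 48 h and was 3.19-fold higher (log2 difference 1.68, SE 0.19, adjusted p = 0.00539). Abcc4, a pump that can export bile acids into blood, read 4.08, 4.07 and 2.43 in sham and 5.90, 6.71 and 5.98 at 48 h (log2 difference 2.67, SE 0.49, adjusted p = 0.0186). The call of Abcc4 was lost without 48 h B, with an adjusted p of up to 0.0515. Abcc3 (log2 difference 1.35, SE 0.27, adjusted p = 0.0242) and Abcg2 (log2 difference 0.64, SE 0.15, adjusted p = 0.038) were named after their values were seen. Leaving out 48 h A, 48 h B, sham A, sham B or sham C ended the call of Abcc3 (adjusted p up to 0.0747). Abcg2 was no longer called without 24 h B, 48 h A, 48 h B, sham A, sham B or sham C (adjusted p up to 0.12).

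In bile acid synthesis 4 of 16 genes fell (median -0.35), and the falls numbered 0 without sham B, 1 without 48 h A or sham C and 2 without 48 h B. Cyp7b1, an oxysterol hydroxylase of the acidic path, read 15.17, 15.03 and 15.80 in sham and 13.23, 12.71 and 13.28 at 48 h and was 4.8-fold lower (log2 difference -2.26, SE 0.41, adjusted p = 0.0186). Slc27a5, which activates bile acids for conjugation, read 14.03, 14.15 and 14.40 in sham and 13.43, 13.49 and 13.54 at 48 h (log2 difference -0.71, SE 0.12, adjusted p = 0.014). For Cyp7b1, the call was lost without 48 h A, 48 h B, sham B or sham C, and its adjusted p then reached 0.0626. The call of Slc27a5 was lost without sham B, with an adjusted p of up to 0.0502. Cyp7a1, the rate-limiting enzyme of the classic path, overlapped between the groups (10.77, 10.07 and 9.50 in sham and 10.07, 9.05 and 10.18 at 48 h, adjusted p = 0.726). Cyp8b1, which sets the cholate share, read 13.23, 13.24 and 12.94 in sham and 12.52, 11.32 and 10.78 at 48 h and was lower in every 48 h liver, but did not pass the test (adjusted p = 0.148) except in the fit of all 18 arrays.

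Drug-clearing enzymes were lower. Of 27 P450 genes of foreign-compound metabolism, 10 fell and 17 did not pass the test (median -0.48); leaving out single arrays gave 6 without sham B or sham C. Cyp2c54 read 13.24, 13.56 and 13.16 in sham and 12.09, 11.82 and 11.94 at 48 h and was 2.59-fold lower (log2 difference -1.37, SE 0.18, adjusted p = 0.00748), and Cyp2j5, an epoxygenase, read 13.86, 13.89 and 13.998 in sham and 12.29, 11.67 and 12.64 at 48 h and was 3.29-fold lower (log2 difference -1.72, SE 0.25, adjusted p = 0.00979). Of 32 conjugating enzymes, 10 fell and 22 did not pass the test (median -0.51), with 3 without sham B, 5 without 48 h A or sham A, 6 without sham C and 16 without 48 h C. Gstm6, a glutathione transferase, read 10.55, 10.57 and 9.90 in sham and 7.54, 6.91 and 7.73 at 48 h and was 7.72-fold lower (log2 difference -2.95, SE 0.30, adjusted p = 0.00467). Ugt2b1, a glucuronosyl transferase, which uses a uridine-linked sugar as donor, read 14.65, 14.50 and 14.99 in sham and 12.88, 12.62 and 13.12 at 48 h and was 3.58-fold lower (log2 difference -1.84, SE 0.20, adjusted p = 0.0049). P450, transferase and glucuronosyl families hold close paralogs, so a set can read more than 1 member. Cyp2e1 was not called (15.64, 15.74 and 15.70 in sham and 15.51, 15.47 and 15.32 at 48 h, adjusted p = 0.0689), except with array weights.

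Genes that are known to be higher in male than female liver fell. Of 24 male-biased genes, 11 fell and 13 did not pass the test (median -1.05); the falls numbered 6 without sham B and 7 without sham C. Medians in the 48 h livers were -0.66, -1.38 and -1.43, so liver A fell least. Of 17 female-biased genes, 0 were called with limma (median 0.27), 3 were higher and 2 lower at an unadjusted p under 0.05, and rank product called 4. The difference between these lists was not tested. The male pattern of these genes follows the pulsed release of growth hormone. Ghr, the growth hormone receptor, read 13.67, 13.67 and 13.57 in sham and 12.86, 12.37 and 12.75 at 48 h and was 1.97-fold lower (log2 difference -0.98, SE 0.14, adjusted p = 0.00967). Igfals, a growth hormone target that stabilises circulating IGF, read 9.55, 9.85 and 10.32 in sham and 7.66, 8.49 and 8.14 at 48 h and was 3.51-fold lower (log2 difference -1.81, SE 0.26, adjusted p = 0.00938). Igf1 was not called (13.04, 13.16 and 13.49 in sham and 12.71, 13.57 and 12.52 at 48 h, adjusted p = 0.593).

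Some genes of nitrogen and carbohydrate metabolism fell. Of 36 genes of amino acid breakdown, 9 fell and 27 did not pass the test (median -0.65), and the count was 3 without sham B, 4 without 48 h A, 48 h B, sham A or sham C and 16 without 24 h A. Hpd, of tyrosine breakdown, read 15.27, 15.33 and 15.20 in sham and 14.63, 14.55 and 14.60 at 48 h and was 1.6-fold lower (log2 difference -0.68, SE 0.07, adjusted p = 0.00478). Ivd, of leucine breakdown, read 11.20, 11.28 and 11.40 in sham and 9.87, 10.07 and 10.15 at 48 h and was 2.4-fold lower (log2 difference -1.26, SE 0.14, adjusted p = 0.00508). In the urea cycle 4 of 14 genes fell, with 1 without 48 h A, sham A or sham B and 2 without 48 h B and 2 after the shift to a common 75th percentile. Rhbg, an ammonia channel of pericentral hepatocytes, read 8.49, 8.43 and 8.28 in sham and 7.18, 6.92 and 7.44 at 48 h and was 2.33-fold lower (log2 difference -1.22, SE 0.16, adjusted p = 0.00729). Of 20 genes of glucose production and glycogen, 3 fell (6 without 24 h A) and 2 rose (0 without 48 h A, 48 h C, sham A, sham B or sham C). The falls included the glucose carrier Slc2a2, which read 13.40, 13.55 and 13.41 in sham and 12.33, 12.41 and 12.37 at 48 h and was 2.11-fold lower (log2 difference -1.08, SE 0.12, adjusted p = 0.00508). Fbp1, an enzyme of gluconeogenesis, was 1.93-fold lower (log2 difference -0.95, SE 0.14, adjusted p = 0.00979). The rises were Gyg, which primes glycogen synthesis (log2 difference 0.67, SE 0.15, adjusted p = 0.0342), and Phkg2, a phosphorylase kinase chain named after its value was seen (log2 difference 1.06, SE 0.27, adjusted p = 0.0496). Leaving out 24 h A, 48 h A, 48 h C, sham A, sham B or sham C ended the call of Gyg (adjusted p up to 0.103). Phkg2 was no longer called without 24 h C, 48 h A, 48 h B, 48 h C, sham A, sham B or sham C (adjusted p up to 0.126).

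GalN consumes uridine nucleotides, and the list of galactose, UDP-sugar and uridine metabolism had 5 of 31 genes higher and 1 lower (median -0.06). The rises were Ctps2, Ctps, Cda, Upp1 and the uridine kinase homolog Uckl1, and the fall was Dpyd, of pyrimidine breakdown. The number of falls was 0 without 24 h B, 48 h A, 48 h B, sham A, sham B or sham C, 2 without 24 h A and 3 without 48 h C. Dpyd and Uckl1 were named after their values were seen. For Uckl1, the call was lost without sham B, and its adjusted p then reached 0.057. Ctps2, a CTP synthase, read 7.08, 6.76 and 6.91 in sham and 8.79, 9.004 and 9.30 at 48 h and was 4.32-fold higher (log2 difference 2.11, SE 0.21, adjusted p = 0.00417). Its paralog Ctps read 5.93, 5.97 and 6.05 in sham and 8.36, 7.80 and 7.28 at 48 h and was 3.54-fold higher (log2 difference 1.83, SE 0.26, adjusted p = 0.00886). Cda, which deaminates cytidine to uridine, read 4.95, 5.68 and 5.07 in sham and 8.75, 8.17 and 7.32 at 48 h and was 7.21-fold higher (log2 difference 2.85, SE 0.39, adjusted p = 0.00822). Upp1, uridine phosphorylase, read 2.40, 2.40 and 2.25 in sham and 4.34, 3.61 and 3.78 at 48 h (log2 difference 1.56, SE 0.23, adjusted p = 0.00979), close to background in sham. Between 24 h and 48 h the CTP synthases went apart. Ctps2 was higher at 48 h than at 24 h, where it read 5.35, 5.74 and 5.99 (log2 difference 3.34, adjusted p = 2.32e-04), and Ctps was lower (24 h values 8.79, 8.81 and 9.05, log2 difference -1.07, adjusted p = 0.0196).

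Proteasome transcripts rose together. Of 36 subunits tested, 19 rose and 17 did not pass the test (median 0.74), against 6.25% of all genes higher. The count was 9 without sham C, 10 without 48 h A, 11 without sham B and 12 without sham A. The list medians at 48 h were 0.79, 0.72 and 0.66, so C moved with A and B. Psmb4, a subunit of the catalytic core, read 14.22, 14.21 and 14.16 in sham and 15.18, 15.10 and 14.97 at 48 h and was 1.85-fold higher (log2 difference 0.89, SE 0.07, adjusted p = 0.00299). Psmb3, another core subunit, read 12.75, 12.74 and 12.64 in sham and 13.46, 13.46 and 13.68 at 48 h and Psma2, of the outer ring, 12.17, 12.12 and 11.92 in sham and 13.12, 13.03 and 13.001 at 48 h. Psmc3, an ATPase of the regulatory cap, read 11.77, 11.85 and 11.80 in sham and 12.82, 12.69 and 12.46 at 48 h and was 1.8-fold higher (log2 difference 0.85, SE 0.11, adjusted p = 0.00728). These subunits were named for the smallest p of the list, and core and cap were not compared over the list. Tested directly, Psmb4 was also higher at 48 h than at 24 h (24 h values 14.16, 14.21 and 14.08, log2 difference 0.93, adjusted p = 4.03e-04), as was Psmc3 (24 h values 11.53, 11.52 and 11.73, log2 difference 1.06, adjusted p = 8.58e-04).

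Ribosomal transcripts rose in both lists, with different patterns over the arrays. Of 44 genes of ribosome assembly, 12 rose and 32 did not pass the test (median 0.55), and single arrays moved this to 6 without sham B, 7 without 48 h A and 22 without 48 h C. The list medians at 48 h were 0.79, 0.80 and 0.13, so C was far lower than A and B. Brix1, an assembly factor of the large subunit, read 9.63, 9.51 and 9.43 in sham and 10.63, 10.53 and 10.68 at 48 h and was 2.12-fold higher (log2 difference 1.09, SE 0.10, adjusted p = 0.00364). The only other set of Brix1 differed by 0.25 without a call (adjusted p = 0.64). Nop56, a core protein of box C/D nucleolar particles, read 8.24, 7.91 and 7.83 in sham and 9.03, 9.17 and 8.84 at 48 h and was 2.04-fold higher (log2 difference 1.03, SE 0.14, adjusted p = 0.00879). Both were lower at 48 h than at 24 h, Brix1 with 24 h values of 12.11, 11.89 and 11.90 (log2 difference -1.35, adjusted p = 3.06e-04) and Nop56 with 10.56, 10.36 and 10.45 (log2 difference -1.44, adjusted p = 7.83e-04).

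Of 35 ribosomal proteins, 13 rose and 22 did not pass the test (median 0.55), and here C was highest, with list medians of 0.41, 0.37 and 0.77. The count was 4 without sham B and 5 without sham C. It also depended on the scaling, at 2 after the shift to a common 75th percentile and 22 after quantile normalization. Rps20 read 15.22, 15.18 and 15.11 in sham and 15.70, 15.76 and 15.74 at 48 h and was 1.48-fold higher (log2 difference 0.57, SE 0.08, adjusted p = 0.00799). Of the other sets of Rps20, 1 rose by 0.60 and 1 differed by -0.30 without a call (adjusted p = 0.747). Rpl7 read 14.07, 13.99 and 13.98 in sham and 14.54, 14.56 and 14.62 at 48 h and was 1.48-fold higher (log2 difference 0.56, SE 0.06, adjusted p = 0.00478). Neither Rps20 nor Rpl7 was called after the 75th percentile shift. Rpl22 read 13.23, 13.20 and 13.03 in sham and 13.95, 14.01 and 14.41 at 48 h (log2 difference 0.97, SE 0.14, adjusted p = 0.00906), and of its other sets 1 rose by 0.95 and 1 differed by -1.004 without a call (adjusted p = 0.153), so the sets disagree in sign. Ribosomal protein genes have many near-identical pseudogenes, and their sets may read several copies.

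Chaperones of the endoplasmic reticulum, through which secreted proteins pass, fell in 8 and rose in 0 of 24 tested (median -0.52). The falls numbered 3 without sham B, 4 without sham C and 5 without 24 h C, 48 h A or 48 h C. P4hb, a protein disulphide isomerase, read 14.60, 14.59 and 14.73 in sham and 13.62, 13.63 and 13.87 at 48 h and was 1.91-fold lower (log2 difference -0.93, SE 0.10, adjusted p = 0.00488). Sdf2l1, a stress-induced partner of the chaperone BiP, read 8.53, 8.59 and 8.60 in sham and 6.44, 6.82 and 6.25 at 48 h and was 4.2-fold lower (log2 difference -2.07, SE 0.30, adjusted p = 0.00951). Ero1b, an oxidase that drives disulphide formation, read 10.16, 10.37 and 10.73 in sham and 9.19, 9.17 and 9.20 at 48 h and was 2.35-fold lower (log2 difference -1.23, SE 0.18, adjusted p = 0.00994). The cytosolic heat shock protein Hspb1 differed in direction, at 6.53, 6.37 and 6.52 in sham and 9.58, 9.86 and 8.80 at 48 h, and was 7.7-fold higher (log2 difference 2.95, SE 0.40, adjusted p = 0.00816). Of 22 heat shock genes 2 rose, with 1 without 48 h A, sham B or sham C and 7 without 48 h C, and 1 after the shift to a common 75th percentile.

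The count for oxidative phosphorylation depended on array C. Of 47 genes tested, 2 fell and 45 did not pass the test, a share of falls near the background of 3.94%, but the falls numbered 1 without 48 h A, 48 h B, sham A, sham B or sham C, 5 without 24 h A and 15 without 48 h C. List medians at 48 h were -0.38, -0.32 and 0.21, negative in A and B and positive in C. Sdha, the flavoprotein of complex II, read 12.82, 12.92 and 13.09 in sham and 11.82, 12.10 and 12.27 at 48 h and was 1.84-fold lower (log2 difference -0.88, SE 0.13, adjusted p = 0.0104). C also had the larger 3' to 5' gap given above, and its part in this contrast was not tested.

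**Figure D4:**
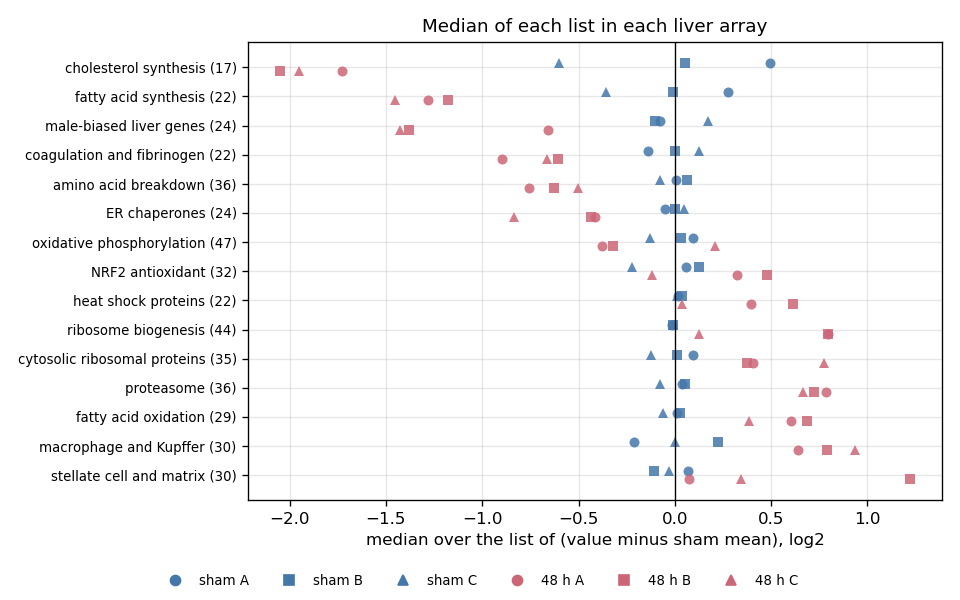
Median over the tested genes of each list of the value minus the sham mean (log2, horizontal axis), for each of the 3 sham and the 3 livers at 48 h, with the number of genes in brackets. Cholesterol synthesis, fatty acid synthesis and the proteasome agree over the 48 h livers, while C departs from A and B in ribosome biogenesis and oxidative phosphorylation.

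Stress responses were partly raised at 48 h. Of 29 p53 targets, 5 rose and 24 did not pass the test (median 0.32), and the rises numbered 2 without 48 h A, sham A or sham B and 3 without sham C. Aen, a nuclease induced by p53, read 4.93, 4.76 and 4.76 in sham and 6.92, 6.59 and 6.60 at 48 h and was 3.71-fold higher (log2 difference 1.89, SE 0.24, adjusted p = 0.00758). Other sets of Aen had no call: 1 differed by 0.36 (adjusted p = 0.565) and 1, near background, by -0.05 (adjusted p = 0.931). With the mean of probe sets per gene, Aen was not called. Perp, a p53 target of cell junctions, read 11.42, 11.12 and 11.27 in sham and 12.44, 12.50 and 12.73 at 48 h and was 2.43-fold higher (log2 difference 1.28, SE 0.12, adjusted p = 0.00417). Cdkn1a, the cell cycle inhibitor p21, read 6.12, 6.36 and 6.25 in sham and 10.86, 10.92 and 7.82 at 48 h and was 12.3-fold higher (log2 difference 3.62, SE 0.77, adjusted p = 0.0297), with C more than 3 log2 units under A and B. The call of Cdkn1a was lost without 24 h B, 24 h C, 48 h A, 48 h B, sham A, sham B or sham C, with an adjusted p of up to 0.0907. Aen and Cdkn1a were lower at 48 h than at 24 h, when Aen read 9.76, 8.98 and 9.89 (log2 difference -2.84, adjusted p = 5.23e-04) and Cdkn1a 13.40, 13.37 and 13.44 (log2 difference -3.54, adjusted p = 0.0137). Perp was higher at 48 h than at 24 h (24 h values 11.40, 11.25 and 11.56, log2 difference 1.15, adjusted p = 0.00105).

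Of 32 genes of the NRF2 antioxidant response, 4 rose and 28 did not pass the test (median 0.19), with 2 without 48 h B and 10 without 48 h C. Cbr3, a carbonyl reductase, read 4.06, 3.37 and 2.65 in sham and 8.12, 8.88 and 6.26 at 48 h (adjusted p = 0.0115), and Nqo1, a quinone reductase, read 5.61, 6.44 and 5.36 in sham and 8.44, 8.35 and 7.60 at 48 h and was 5.02-fold higher (log2 difference 2.33, SE 0.33, adjusted p = 0.00938). In both, C was the lowest 48 h liver and still above sham. Of 31 ATF4 targets 2 rose, the serine synthesis enzymes Psat1 and Psph, a share of 6.45% against 6.25% over all genes. Psph read 7.40, 7.57 and 7.47 in sham and 9.11, 8.83 and 8.90 at 48 h (log2 difference 1.47, SE 0.32, adjusted p = 0.033). The number of rises was 0 without 48 h A, sham A, sham B or sham C and 1 without 24 h A or 48 h B. The C/EBP-ATF motif TGATGNAA was in the promoters of 11 of 29 genes of this list with a RefSeq promoter, against 3.97% of all promoters, and those 11 do not include Psat1 or Psph. The 29 genes have 33 promoters, so a share of genes stands beside a share of promoters. Leaving out 48 h A, 48 h B, 48 h C, sham A, sham B or sham C ended the call of Psph (adjusted p up to 0.1).

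Cell division genes rose in few cases. Of 22 mitotic genes, 4 rose and 18 did not pass the test (median 0.51), and the rises numbered 2 without sham A, sham B or sham C. Cdk1, the kinase that starts mitosis, read 3.87, 3.91 and 3.82 in sham and 5.32, 5.09 and 5.39 at 48 h and was 2.64-fold higher (log2 difference 1.40, SE 0.08, adjusted p = 0.00148). Ect2, which positions the cleavage furrow, read 3.95, 3.58 and 3.83 in sham and 5.17, 4.94 and 6.49 at 48 h (log2 difference 1.74, SE 0.37, adjusted p = 0.0306). Ect2 was no longer called without 24 h B, 24 h C, 48 h A, sham A, sham B or sham C (adjusted p up to 0.106). Both were also higher at 48 h than at 24 h, Cdk1 with 24 h values of 3.76, 3.76 and 3.74 (log2 difference 1.52, adjusted p = 1.70e-04) and Ect2 with 2.65, 2.65 and 2.54 (log2 difference 2.92, adjusted p = 0.0019). These values lie in the lower part of the scale. Mki67, a marker of cycling cells, read 2.55, 2.55 and 2.54 in sham and 3.81, 5.39 and 2.55 at 48 h and was not called (adjusted p = 0.22), with C at the sham level. It was called higher without 48 h C and with array weights. Of 35 genes of DNA replication 1 rose (Mcm7, log2 difference 1.08, SE 0.27, adjusted p = 0.0477), a share under the background. That count was 0 without 24 h B, 24 h C, 48 h A, sham B or sham C, 3 without 48 h C and 5 without sham A. For Mcm7, the call was lost without 24 h B, 24 h C, 48 h A, 48 h B, sham A, sham B or sham C, and its adjusted p then reached 0.145. Ccnd1, cyclin D1, was not called (8.98, 8.57 and 8.29 in sham and 7.78, 8.36 and 5.99 at 48 h, adjusted p = 0.305).

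Of 20 fetal and progenitor genes tested, 3 rose, 1 fell and 16 did not pass the test. The fall was that of Igf2, a fetal growth factor near background in both groups (3.15, 3.21 and 2.86 in sham and 2.67, 2.77 and 2.67 at 48 h, adjusted p = 0.0452). The call of Igf2 was lost without 24 h A, 24 h B, 24 h C, 48 h A, 48 h B, 48 h C, sham A or sham B, with an adjusted p of up to 0.13. Afp, the fetal counterpart of albumin, read 7.95, 7.39 and 5.605 in sham and 10.36, 11.10 and 11.69 at 48 h (adjusted p = 0.0131), and its 24 h values were 6.96, 7.69 and 7.997, so that it was higher at 48 h than at 24 h (log2 difference 3.50, adjusted p = 0.00725). Tnfrsf12a, the receptor Fn14 through which progenitor growth is triggered, read 4.90, 5.25 and 5.30 in sham and 7.78, 8.05 and 7.50 at 48 h and was 6.18-fold higher (log2 difference 2.63, SE 0.32, adjusted p = 0.00686). It was lower than at 24 h, when it read 10.27, 10.31 and 11.39 (log2 difference -2.88, adjusted p = 0.00121). Pkm, the pyruvate kinase of non-hepatocytes and fetal liver, read 5.27, 5.69 and 5.25 in sham and 7.08, 7.50 and 6.88 at 48 h and was 3.37-fold higher (log2 difference 1.75, SE 0.24, adjusted p = 0.00816). Hnf4a, the master factor of hepatocytes, was not called (12.97, 13.38 and 14.002 in sham and 12.84, 13.18 and 12.34 at 48 h, adjusted p = 0.222), except with array weights.

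Genes of the circadian clock were more often lower than higher, with 4 of 20 lower (2 without sham B) and 1 higher. The lower ones were Dbp, Tef, Bhlhe40 and Ciart. The hour of day at which the livers were taken is not in the labels, and was not tested. Dbp, a clock output factor, read 12.81, 13.32 and 13.27 in sham and 11.02, 11.22 and 11.60 at 48 h and was 3.61-fold lower (log2 difference -1.85, SE 0.24, adjusted p = 0.00748). Bhlhe40, a repressor within the clock, read 10.96, 11.10 and 11.31 in sham and 9.33, 9.30 and 9.36 at 48 h and was 3.46-fold lower (log2 difference -1.79, SE 0.16, adjusted p = 0.00364). Cry1, a repressor of the late phase, rose instead (7.56, 7.62 and 7.79 in sham and 8.55, 9.08 and 8.55 at 48 h, log2 difference 1.07, SE 0.19, adjusted p = 0.0165). Leaving out sham B ended the call of Cry1 (adjusted p up to 0.0628). The promoter of Ciart, a clock repressor chosen after its value was seen (7.52, 9.33 and 9.13 in sham and 6.70, 6.35 and 7.12 at 48 h, log2 difference -1.93, SE 0.47, adjusted p = 0.0436), is shown as the clock gene with 3 copies of the E-box CACGTG, in capitals (chr3:95882179-95882478, minus strand, GRCm38.p6, RefSeq).
Ciart: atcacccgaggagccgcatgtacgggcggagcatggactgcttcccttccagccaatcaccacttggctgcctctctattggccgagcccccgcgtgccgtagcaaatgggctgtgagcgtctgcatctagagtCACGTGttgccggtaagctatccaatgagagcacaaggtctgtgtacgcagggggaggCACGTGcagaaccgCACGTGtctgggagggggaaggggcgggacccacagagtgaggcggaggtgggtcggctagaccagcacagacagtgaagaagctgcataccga
CACGTG was found in at least 1 promoter of 5 of 20 clock genes with a RefSeq promoter, and in 7.15% of all promoters. These 20 genes have 28 promoters, so a share of genes stands beside a share of promoters. Ciart was no longer called without 24 h A, 24 h B, 24 h C, 48 h A, 48 h B, 48 h C, sham B or sham C (adjusted p up to 0.136). For Tef, the call was lost without sham B, and its adjusted p then reached 0.0537.

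Markers of hepatocytes at both ends of the lobule were more often lower than higher. Of 26 pericentral markers 7 fell (4 without sham B) and 2 rose (0 without sham B or sham C and 1 without 24 h A, 48 h A, 48 h B, 48 h C or sham A), and of 27 periportal markers 7 fell (4 without 48 h A, sham A or sham B), with medians of -0.39 and -0.53. Rgn, a pericentral enzyme of vitamin C synthesis in mice, read 14.76, 14.82 and 14.69 in sham and 13.28, 13.37 and 13.51 at 48 h and was 2.58-fold lower (log2 difference -1.37, SE 0.12, adjusted p = 0.00364). Cyp1a2, a pericentral P450, read 13.97, 13.95 and 14.03 in sham and 12.43, 13.12 and 12.26 at 48 h and was 2.61-fold lower (log2 difference -1.38, SE 0.21, adjusted p = 0.0104). The pericentral rises were Csad, an enzyme of taurine synthesis named after its value was seen (6.85, 5.93 and 6.76 in sham and 9.17, 10.67 and 9.20 at 48 h, log2 difference 3.16, SE 0.56, adjusted p = 0.0175), and Nr1i3, the drug receptor CAR (8.67, 9.25 and 8.78 in sham and 9.92, 10.09 and 10.39 at 48 h, log2 difference 1.23, SE 0.29, adjusted p = 0.0411). The call of Csad was lost without sham B or sham C, with an adjusted p of up to 0.0645. Leaving out 24 h A, 48 h A, 48 h B, 48 h C, sham A, sham B or sham C ended the call of Nr1i3 (adjusted p up to 0.124). Etnppl, a periportal phospholyase, read 13.97, 13.78 and 13.38 in sham and 11.21, 11.66 and 11.84 at 48 h and was 4.43-fold lower (log2 difference -2.15, SE 0.21, adjusted p = 0.00417). Glul, glutamine synthetase of the innermost pericentral cells, was not called (13.78, 13.91 and 13.83 in sham and 13.79, 13.68 and 13.09 at 48 h, adjusted p = 0.478).

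Macrophage markers rose. Of 30 tested, 7 rose and 23 did not pass the test (median 0.74; 4 without sham C). The summed level of the list on the log2 scale ran from 13.90 to 14.44 in sham and from 14.93 to 15.23 at 48 h, so the groups did not overlap. Itgam and Itgax, integrins of infiltrating myeloid cells, stayed within 1 of the lowest value in all 6 arrays. Aif1, a macrophage calcium-binding protein, read 6.48, 6.71 and 6.89 in sham and 8.25, 8.81 and 7.95 at 48 h and was 3.12-fold higher (log2 difference 1.64, SE 0.24, adjusted p = 0.00979). Fcer1g, a signalling chain of Fc receptors, read 7.13, 7.20 and 7.17 in sham and 7.98, 8.58 and 8.14 at 48 h and was 2.09-fold higher (log2 difference 1.06, SE 0.16, adjusted p = 0.0112). Ccl6, a chemokine of myeloid cells, read 7.05, 7.59 and 6.99 in sham and 9.47, 9.99 and 10.18 at 48 h and was 6.36-fold higher (log2 difference 2.67, SE 0.25, adjusted p = 0.00364).

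Neutrophil and lymphocyte markers had 0 calls with limma among 7 and 9 tested. At an unadjusted p under 0.05 there was 1 in each list, and rank product also called 1 in each. Of these markers 10 of 16 and 10 of 20 on the array lay within 1 of the lowest value in all 6 arrays. The summed level of the neutrophil list ran from 11.51 to 14.14 in sham and from 9.96 to 11.25 at 48 h, lower without overlap. Array by array the sums were 11.51, 13.46 and 14.14 in sham and 10.24, 9.96 and 11.25 at 48 h. They lay close to the values of Lcn2 alone, a list member given with the acute phase genes. This sum therefore mostly reads Lcn2 and says little about the other neutrophil markers. The lymphocyte sum ran from 8.92 to 9.44 in sham and from 8.58 to 9.75 at 48 h. Among those at background were the neutrophil genes S100a8 and Mpo and the T cell genes Cd3d and Cd3e. Of 34 endothelial markers 4 rose (median 0.50), with 0 without 48 h B, sham A or sham B, 1 without 24 h A, 48 h A, 48 h C or sham C and 2 without 24 h B, and 2 after the shift to a common 75th percentile. The endothelial sum ran from 12.40 to 12.60 in sham and from 12.91 to 13.08 at 48 h, without overlap. Lyve1, a hyaluronan receptor of sinusoids, read 4.08, 4.25 and 6.20 in sham and 7.41, 8.41 and 8.45 at 48 h (log2 difference 3.24, SE 0.73, adjusted p = 0.0358), with sham C above sham A and B. Lyve1 was no longer called without 24 h A, 48 h A, 48 h B, 48 h C, sham A or sham B (adjusted p up to 0.121). Stellate cell and matrix genes had 0 calls with limma among 30 (median 0.51), 4 higher and 2 lower at an unadjusted p under 0.05, and 1 call by rank product. Their medians at 48 h, 0.08, 1.22 and 0.34, were highest in B. Summed stellate levels ran from 14.28 to 14.43 in sham and from 14.04 to 14.88 at 48 h.

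Lists of inflammation and cell death held rises and falls. Of 30 interferon-induced genes 3 rose, a share of 10.0% against 6.25% over all genes. The rises numbered 2 without 24 h C, 48 h A, 48 h B, 48 h C, sham A, sham B or sham C. Among the 3 was Irf7, a factor that amplifies interferon, which read 5.001, 5.51 and 5.001 in sham and 7.31, 8.16 and 7.98 at 48 h and was 6.26-fold higher (log2 difference 2.65, SE 0.33, adjusted p = 0.00696). Oas1a, a sensor of double-stranded RNA, read 4.17, 4.197 and 4.15 in sham and 5.86, 5.76 and 6.40 at 48 h and was 3.57-fold higher (log2 difference 1.84, SE 0.21, adjusted p = 0.00535). Of 22 chemokine and NF-kB genes 3 rose, or 13.6% (1 without sham C), and 1 fell, Bcl3, a nuclear co-regulator of NF-kB (9.50, 9.53 and 10.004 in sham and 7.61, 8.53 and 7.53 at 48 h, adjusted p = 0.017). For Bcl3, the call was lost without 48 h A, sham B or sham C, and its adjusted p then reached 0.0583. Of 29 genes of death receptors and the BCL2 family 3 rose, or 10.3% (1 without 48 h B, sham A, sham B or sham C), and 2 fell, or 6.9% against 3.94% over all genes. The rises were Tnfrsf12a, given above, Diablo, a mitochondrial protein that blocks caspase inhibitors (9.27, 9.26 and 8.97 in sham and 10.36, 10.16 and 9.74 at 48 h, log2 difference 0.92, SE 0.18, adjusted p = 0.0236), and Casp1, an inflammatory caspase named after its value was seen (4.04, 4.04 and 4.04 in sham and 5.05, 5.14 and 5.54 at 48 h, log2 difference 1.20, SE 0.25, adjusted p = 0.0288). The call of Diablo was lost without 48 h A, 48 h B, sham A, sham B or sham C, with an adjusted p of up to 0.0762. Leaving out 24 h B, 48 h A, 48 h B, 48 h C, sham A, sham B or sham C ended the call of Casp1 (adjusted p up to 0.0919). The sham readings of Casp1 were alike to the digits given, which can make its p too small. Bmf, a killer protein of the BCL2 family, read 8.70, 8.84 and 8.77 in sham and 5.82, 6.57 and 7.15 at 48 h and was 4.79-fold lower (log2 difference -2.26, SE 0.30, adjusted p = 0.00816). Xiap, an inhibitor of caspases, read 11.75, 11.69 and 11.93 in sham and 11.13, 11.25 and 10.93 at 48 h and was 1.61-fold lower (log2 difference -0.69, SE 0.11, adjusted p = 0.0143). No other set of Xiap was called: 1 differed by 0.15 (adjusted p = 0.695) and the others by -0.42 to -1.18. Tmprss6, a protease that restrains hepcidin, read 11.98, 11.90 and 12.03 in sham and 11.04, 10.98 and 10.85 at 48 h and was 2.02-fold lower (log2 difference -1.01, SE 0.12, adjusted p = 0.00539). Alas2, the erythroid enzyme of haem synthesis, read 10.48, 10.41 and 10.23 in sham and 8.99, 8.38 and 8.66 at 48 h and was 3.24-fold lower (log2 difference -1.70, SE 0.18, adjusted p = 0.00478), while the other 6 erythroid genes tested were not called.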

How the data were processed

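Liver RNA of 9 arrays (3 each of sham, 24 h and 48 h) on the Affymetrix mouse genome platform was analysed. The authors deposited log2 values per probe set, made with GCRMA per the submitters' processing notes; its version is not given in the sources used here. Values were used as deposited, with no array depth to report; the number of arrays limits precision. Of 45101 sets, 34945 name 1 gene, and the set with the highest mean over 18 arrays stood for each of 18193 genes. Genes whose value exceeded the array median on 3 or more of the 9 liver arrays were tested with limma 3.58.1 (R 4.3.3, trend, group means, two-sided, Benjamini-Hochberg). Every adjusted p is from limma. The script was tested on simulated data. The letters A, B and C are titles, and p-values measure the spread between these samples, which may be technical; same-letter arrays did not deviate together. Members and gene lists were chosen with earlier results of these data known. Named genes were the 12 largest rises and falls, up to 4 called genes of smallest p per list, and a panel of 22, of which Spp1 and Gdf15 have no set naming them alone; Nsdhl, Hmgcs1, Msmo1 and Ciart, and other genes where the text says so, were added after their values were seen. Quantitative PCR was not used here.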

Additional observations from a re-analysis of the deposited data

Results flagged for a closer look

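The change from sham to 48 h was tested for a difference between liver and kidney in 1 model of all 18 arrays. Of all 12062 genes tested, 1636 (13.6%) responded differently in the organs at an adjusted p under 0.05 with limma, and so did 920 (74.9%) of the 1229 called in liver. The genes below are the 19 that did so among the 24 with the largest changes in liver. Both they and the 1229 were chosen on the liver values that enter this difference. Their numbers, shares and sizes are thus a description and no result about them. The response of liver minus that of kidney, on the log2 scale, was 5.30 for Psat1, 4.96 for the set named for Rps25, 4.67 for Mtnr1a, 4.60 for Bhlhb9, 4.13 for Acot9 and 4.07 for Afp. It was 4.05 for Cbr3, 3.72 for Clec7a, 2.95 for Lgals3 and 2.54 for Acot1. Among the falls it was -4.26 for Hsd3b5, -3.91 for Cyp2u1, -3.75 for Mup10, -3.67 for Habp2 and -3.57 for Neb. For Nsl1, Meg3, Gprin3 and Slco1a1 it was -3.36, -3.28, -3.15 and -2.84. Psat1, the set named for Rps25, Mtnr1a, Neb and Gprin3 read background in all 3 arrays of their lower liver group, and Bhlhb9, Cbr3, Cyp2u1 and Nsl1 in some, so those values have no order among the genes. For Mtnr1a, Neb and Gprin3 the value equals the liver change itself, so the kidney sets showed no change at all. Background readings in kidney are not given here, and a gene not read in kidney cannot show a response there. Of the other 141 named genes called in liver, 102 (72.3%) also differed between the organs, a share near that of all genes called in liver.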

How the results depend on the processing

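The counts of genes called were 1229 in all, 754 higher, 475 lower and 670 at least 2-fold, in that order below. They were 769, 464, 305 and 427 without a filter, 741, 412, 329 and 414 with only the 6 arrays compared, and 290, 135, 155 and 290 by rank product, of which 209 were shared with limma. They were 4727, 2740, 1987 and 1404 with array weights, and 2515, 1562, 953 and 1069 with all 18 arrays. The 75th percentile shift gave 1013, 483, 530 and 711, with 47.7% of calls higher against 61.4%. With the array letter as a replicate block they were 605, 346, 259 and 395; residuals of same-letter arrays correlated at -0.111 to 0.077, so the letters do not pair the samples. Leaving out 1 array at a time gave 448 (without sham B) to 1599 (without 48 h C) in all, 273 to 1008 higher, 175 to 591 lower and 314 to 789 at least 2-fold. Low counts also came from leaving out sham C (596), 48 h A (604) or sham A (806). The filter at percentile 60, the mean of probe sets, quantile normalization, no trend and the robust option kept each count within 1.5 times. Of 165 named calls, 102 held in every fit with 1 array left out that tested them, and none reversed in any alternative. Rank product kept 66 of the 165. Of 92 other probe sets of named called genes, 43 were called in the same direction, 0 in the opposite and 49 not at all. Those without a call included sets of Brix1, Nop56, Rps20, Xiap, Cdkn1a, Tnfrsf12a and Mcm7, and 86 of the 92 had the same sign. The causes were not tested. With 3 arrays a group, a call missed here does not show that a gene was unchanged, and values near 2.213 have no order.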
